A study of Mus musculus with 16 samples.

Results

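The genes described here are 44 mouse genes of DNA replication and the S phase of the cell cycle, measured in cultured aortic smooth muscle cells with and without the transcription repressor Hey2 and stimulated with platelet-derived growth factor (PDGF-BB). They were chosen by function, as all probe sets whose symbol in the array's annotation is one of a list of replication proteins, enzymes of deoxynucleotide supply and regulators of S-phase entry. All 44 were among the 14299 genes tested, and 37 of them were above the filter on dim signals (a normalized signal of 16) on all 16 arrays. The cells were Hey2 knockout (KO) and wild-type (WT) cultures from mice of mixed C57BL/6 and 129SvJ background, isolated by enzymatic digestion from minced aortas whose adventitia had been removed, and used at passage 10 to 20. Both genotypes were held in 0.4% serum for 48 h and then given 5 ng/ml human PDGF-BB. RNA was harvested at 0, 15, 30, 60, 120, 180, 240 and 480 min, with 1 array for each genotype and time. No time has a replicate array, so the comparisons below use times as blocks, or neighbouring times in place of replicates, and nothing in the labels says how many animals or isolates a genotype stands for.

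Replication starts at origins that the origin recognition complex (Orc proteins), Cdc6 and Cdt1 load with the MCM helicase before S phase. Cdc45, the GINS proteins and Mcm10 turn the loaded MCM ring into an active helicase, the primase and DNA polymerases copy the opened strands behind the sliding clamp Pcna, and Fen1 and Lig1 join the pieces of the lagging strand. Many of these genes, and the enzymes that make deoxynucleotides, are known targets of the E2F transcription factors, which the retinoblastoma family holds back in resting cells and releases when growth factors drive cells out of G1. Smooth muscle cells starved of serum are largely at rest, and PDGF-BB is a classic mitogen for them, with S phase usually following many hours later.

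The deposited signals differed in overall brightness between arrays, with a trimmed mean of 81.0 to 342.5, and were quantile normalized. The array labelled WT 60 min was most like the KO 480 min array (r = 0.57 across genes) and correlated with the KO 60 min array at -0.327. The array labelled WT 480 min was most like the KO 60 min array (r = 0.46) and correlated with the KO 480 min array at -0.375. The other 6 WT arrays correlated with the KO array of the same time at 0.38 to 0.52. Of these, WT 15 min was slightly closer to KO 0 min (0.457 against 0.446). Fos, an immediate early gene, had a log2 signal of 12.64 in the KO 60 min array, 9.33 in the KO 480 min array, 7.76 in the library labelled WT 60 min and 12.91 in the library labelled WT 480 min. The comparisons between time windows therefore leave out the 60 and 480 min arrays of both genotypes, and the comparison over all times is given with and without them. Hey2 itself gave a normalized signal of 23.3 to 63.3 in KO arrays against 14.04 to 113.3 in WT arrays, and was not called over all times (log2 difference -0.19 ± 0.32 (SE), adjusted p = 0.697). In the arrays of 0 to 30 min it read 34.3 to 63.3 in KO against 100.7 to 113.3 in WT, and in those of 120 to 240 min 23.3 to 41.0 against 14.04 to 19.3. The labels do not place its probe set relative to the deleted sequence.

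The promoters of 5 members are shown because each is the member with the smallest p of its role group, among those called in a comparison, whose promoter window held an E2F-type motif. The windows are RefSeq's (GRCm38.p6), 250 bases before to 50 bases after an annotated start, written 5′ to 3′ on the strand of the gene. The words searched on both strands were TTTCCCGC, TTTCGCGC, TTTGCCGC and TTTGGCGC, and capitals mark the matches. The Mcm6 window is chr1:128359656-128359955 on the minus strand, with matches starting 110, 106 and 47 bases before the start, of which the first pair overlap. The Cdt1 window is chr8:122567765-122568064 on the plus strand, with a match 32 bases after the start. The E2f3 window is chr13:29986014-29986313 on the minus strand, with a match 11 bases before the start. The Rfc3 window is chr5:151651159-151651458 on the minus strand, with matches 10 bases before the start and at it. The Lig1 window is chr7:13278576-13278875 on the plus strand, with a match 26 bases after the start.
Mcm6: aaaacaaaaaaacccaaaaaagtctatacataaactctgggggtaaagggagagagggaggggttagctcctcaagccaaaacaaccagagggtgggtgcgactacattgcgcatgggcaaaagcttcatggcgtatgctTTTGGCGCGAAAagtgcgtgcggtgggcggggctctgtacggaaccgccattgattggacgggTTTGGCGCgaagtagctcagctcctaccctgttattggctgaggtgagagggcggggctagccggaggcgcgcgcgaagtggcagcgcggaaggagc
Cdt1: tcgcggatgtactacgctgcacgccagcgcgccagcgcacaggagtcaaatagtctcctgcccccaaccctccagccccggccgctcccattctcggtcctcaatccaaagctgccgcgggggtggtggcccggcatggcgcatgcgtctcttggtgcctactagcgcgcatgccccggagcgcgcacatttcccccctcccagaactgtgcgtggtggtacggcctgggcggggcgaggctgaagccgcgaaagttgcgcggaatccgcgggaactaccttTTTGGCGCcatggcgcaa
E2f3: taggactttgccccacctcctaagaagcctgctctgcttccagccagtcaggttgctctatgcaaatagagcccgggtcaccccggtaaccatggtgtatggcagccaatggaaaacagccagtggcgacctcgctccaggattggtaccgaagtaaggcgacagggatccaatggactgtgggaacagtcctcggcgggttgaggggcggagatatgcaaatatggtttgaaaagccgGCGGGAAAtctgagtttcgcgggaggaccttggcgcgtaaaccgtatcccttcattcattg
Rfc3: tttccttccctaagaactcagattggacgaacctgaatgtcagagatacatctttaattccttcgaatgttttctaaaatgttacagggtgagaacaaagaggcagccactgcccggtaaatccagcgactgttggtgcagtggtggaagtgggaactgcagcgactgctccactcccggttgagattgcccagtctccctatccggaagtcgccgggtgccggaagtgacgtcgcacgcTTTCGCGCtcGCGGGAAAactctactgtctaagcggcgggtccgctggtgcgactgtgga
Lig1: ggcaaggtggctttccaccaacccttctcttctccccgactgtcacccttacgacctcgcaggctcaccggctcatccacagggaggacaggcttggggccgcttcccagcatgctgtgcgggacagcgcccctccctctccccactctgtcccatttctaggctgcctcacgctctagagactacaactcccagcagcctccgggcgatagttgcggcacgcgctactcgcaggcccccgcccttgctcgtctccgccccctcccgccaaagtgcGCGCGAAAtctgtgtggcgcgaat

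A window was at hand for 38 of the 44 members, and 15 of these 38 (39.5%) held at least 1 of the words, against 704 of 27025 genes with a window (2.6%) and 3.29% of protein-coding genes. Of members higher in KO over all times, 2 of 15 with a window held a word, of those lower in KO 2 of 3, and of those not called 11 of 20. The figures describe these letters in these windows and say nothing of binding.

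Over all 8 times, more of the replication genes were higher in KO than in WT, with deoxynucleotide enzymes showing the largest differences and Mcm6 standing on the other side. At an adjusted p under 0.05, 16 of the 44 members (36.4%) were higher in KO, where the share of all genes tested was 16.5%. Another 3 members (6.82%) were lower in KO, where the share of all genes was 14.1%. The median member was 0.25 higher in KO on the log2 scale, against a median of -0.02 over all genes, and the members spanned -0.87 to 1.97. The KO array was the higher of the pair at all 8 labelled times for 9 members and the lower at all 8 for 1, Mcm6. No share of all genes was counted for this, so it is given as a description only. The pairs of 60 and 480 min hold the WT arrays with doubtful labels. All KO arrays lay above all WT arrays for 2 members, Rrm2 and Dut (5.38% of all genes), and all KO arrays lay below all WT arrays for Mcm6 (3.08% of all genes). With each array in turn left out, 12 of the 19 calls held in all 16 fits, namely those of Mcm5, Mcm6, Cdc45, Rfc5, Pole, Rpa1, Fen1, Rrm2, Tk1, Dut, E2f1 and Chek1. Once the 60 and 480 min arrays were set aside, 22 members were higher in KO (20.9% of all genes) and 4 lower (20.2% of all genes). With the signals as deposited, 14 members were higher in KO (13.1% of all genes) and 0 lower (1.8% of all genes).

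**Figure D1:**
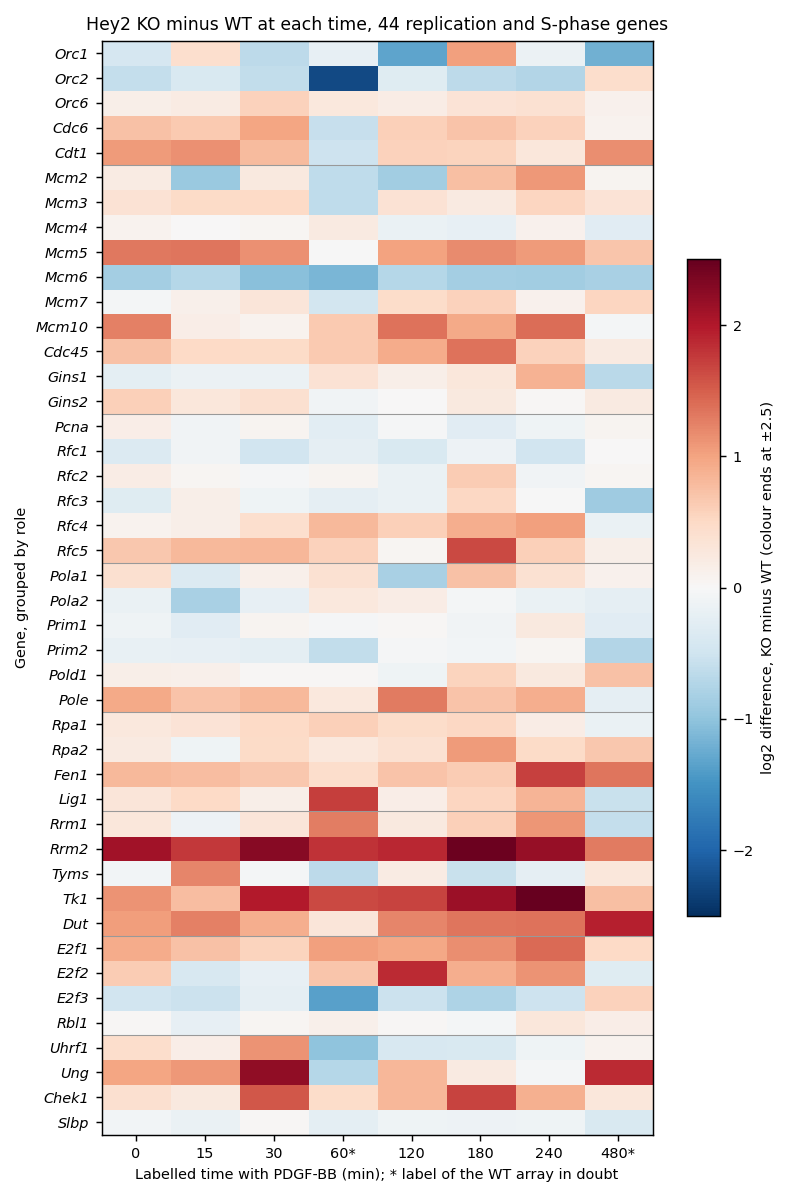
Difference in log2 signal, KO minus WT, for the 44 members (rows, grouped by role) at each labelled time in minutes (columns); red is higher in KO and blue lower. The rows of Rrm2, Tk1, Dut and E2f1 are red at all 8 times and the row of Mcm6 is blue at all 8, and the asterisks mark the times whose WT array goes against its label.

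The genotypes also differed in marker genes of other cell types and of mitosis. The 8 mesothelial markers were all higher in KO, with a summed signal of 12790 to 15250 in KO arrays against 1032 to 1947 in WT arrays. Of 8 smooth muscle markers, 7 were lower in KO, with a summed signal of 6544 to 9631 in KO against 12520 to 17060 in WT, and Smtn was not called (-0.25 ± 0.22 (SE), adjusted p = 0.419). Acta2 and Tagln, the brightest of the 8, were far above the filter in both genotypes (log2 means of 12.52 and 10.23 in KO, 13.13 and 11.73 in WT). Others were dim in KO, with log2 means of 3.71 for Myh11, 4.75 for Cnn1, 4.76 for Lmod1 and 4.87 for Actg2. In WT these were 5.09, 7.08, 6.62 and 8.25. Between them lay Myl9 (7.63 in KO, 10.47 in WT) and Smtn (8.32 in KO, 8.57 in WT). Of 6 fibroblast markers, 4 were higher in KO and 1, Lum, was lower. The endothelial markers Pecam1, Cdh5, Vwf and Tie1 and the leukocyte markers Ptprc and Itgam were below the filter. Of the tested endothelial and leukocyte markers, Cd14 was higher in KO (0.44 ± 0.11 (SE), adjusted p = 0.00973), and Kdr (-0.39 ± 0.16 (SE)), Tek (-0.42 ± 0.27 (SE)), Csf1r (0.78 ± 0.37 (SE)), Cd68 (0.05 ± 0.20 (SE)) and Laptm5 (-0.09 ± 0.22 (SE)) were not called. At 120 to 240 min Csf1r was also higher in KO (1.11 ± 0.39 (SE), adjusted p = 0.0483). All 11 tested genes of mitosis were higher in KO, with a summed signal of 1291 to 3288 in KO against 569.4 to 1356 in WT. The part of these differences in the result for the replication genes was not tested, and in bulk RNA a larger share of cycling cells and more RNA per cycling cell cannot be told apart.

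The enzymes of deoxynucleotide supply held the largest differences, with 3 of 5 members higher in KO. Rrm2, the regulated subunit of ribonucleotide reductase, had normalized signals of 679, 618, 716, 638, 575, 516, 479 and 402 in the KO arrays in order of labelled time, against 156, 178, 143, 179, 153, 89.7, 102 and 160.3 in the WT arrays. Every KO array lay well above every WT array, and the fitted difference was 3.91-fold (1.97 ± 0.13 (SE), adjusted p = 1.21e-06). Folds are on the scale of log2(signal + 4.856), which understates the change of dim genes. Tk1, the salvage enzyme thymidine kinase, had 96.2, 87.3, 111, 102, 71.99, 65.3, 60.2 and 42 in KO against 41.4, 49.3, 24.3, 28.9, 18.9, 11.1, 3.19 and 22.8 in WT. It was higher in KO at each of the 8 times (3.12-fold, 1.64 ± 0.24 (SE), adjusted p = 0.000429), although the KO 480 min array fell inside the WT range, and 2 WT arrays lay under the filter. Dut, the dUTPase that keeps uracil out of DNA, had 672, 662, 515, 509, 504, 615, 609 and 854 in KO against 322, 274, 272, 413, 213, 240.1, 234 and 218 in WT. Its groups did not overlap (2.26-fold, 1.17 ± 0.15 (SE), adjusted p = 0.000163). Rrm1, the large subunit of the reductase that Rrm2 belongs to, had 559 to 1076 (median 872) in KO against 335 to 986 (median 772) in WT and was not called (0.39 ± 0.18 (SE), adjusted p = 0.138). Tyms, thymidylate synthase, was near the filter on its own probe set, at 14.2 to 29.8 (median 19.4) in KO against 5.78 to 28.9 (median 22.6) in WT (0.02 ± 0.21 (SE), adjusted p = 0.961). A probe set shared by Tyms and its pseudogene gave signals of 135.5 to 226.9 in KO against 80.3 to 217.4 in WT. At 0, 15 and 30 min it read 166.1, 149.8 and 135.5 in KO against 89.2, 87.2 and 85.7 in WT. At 120, 180 and 240 min it read 196.3, 187.1 and 206.6 in KO against 172, 215.4 and 217.4 in WT, higher than early in both genotypes. This probe set cannot tell the pair apart and was not tested.

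**Figure D2:**
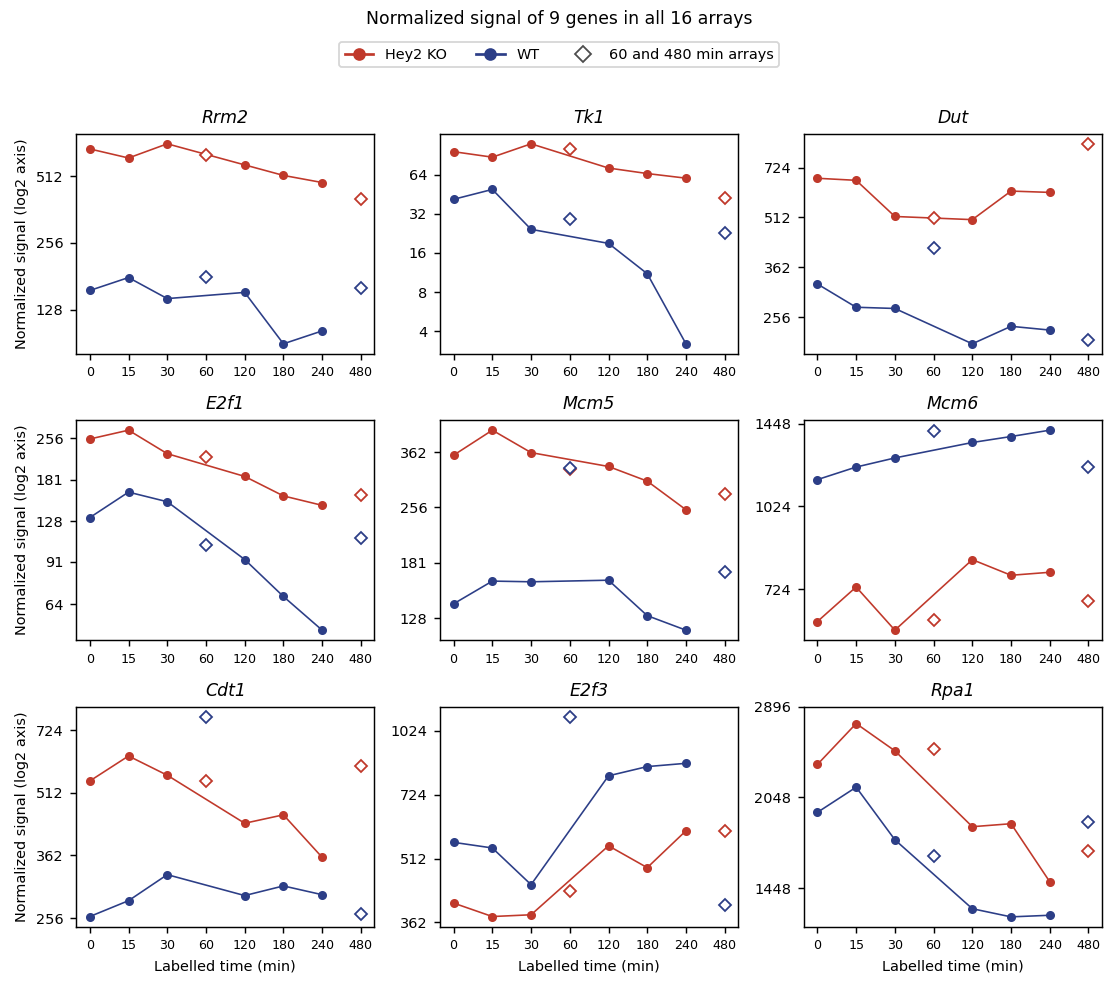
Normalized signal (log2 axis) against labelled time in minutes for 9 members, KO in red and WT in blue, 1 array per point; open diamonds are the 60 and 480 min arrays. Rrm2, Dut and Mcm6 show no overlap between genotypes, and E2f3 rises in both genotypes by 120 min.

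Within the helicase, subunits of the same ring differed between genotypes in opposite directions. Mcm6 had 632, 730.4, 609, 636, 819, 767, 777 and 688 in KO against 1146, 1208, 1255, 1403, 1339, 1373, 1410 and 1209 in WT, so that each KO array was below each WT array. It was 1.83-fold lower in KO (-0.87 ± 0.07 (SE), adjusted p = 7.6e-06), and stayed lower, at -0.53 but past the threshold no longer (adjusted p = 0.26), with the signals as deposited. Mcm5 had 355, 415, 361, 326, 331, 302, 252 and 278 in KO against 140, 161, 161, 328, 162, 130, 119 and 171 in WT. It was 1.95-fold higher in KO (0.96 ± 0.15 (SE), adjusted p = 0.000542), and the library labelled WT 60 min was the 1 WT array that reached the KO range. The other 4 subunits of the ring were not called, with differences of -0.01 ± 0.22 (SE) for Mcm2, 0.27 ± 0.13 (SE) for Mcm3, -0.02 ± 0.08 (SE) for Mcm4 and 0.20 ± 0.11 (SE) for Mcm7.

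Of the proteins that activate the ring, Cdc45 had 50.9 to 85.9 (median 73.7) in KO against 25.9 to 59.1 (median 43.6) in WT and was 1.605-fold higher (0.68 ± 0.14 (SE), adjusted p = 0.00319). Mcm10 had 45.2 to 87.5 (median 56.7) in KO against 17.2 to 47.4 (median 37.9) in WT and was 1.65-fold higher (0.72 ± 0.20 (SE), adjusted p = 0.0174). Both calls rested on the brightest probe set: with the mean of each gene's tested probe sets the differences were 0.18 for Cdc45 and 0.28 for Mcm10 and neither passed, and Mcm10 was also lost without the KO 0 min or the KO 120 min array. Gins1 (0.06 ± 0.17 (SE)) and Gins2 (0.22 ± 0.10 (SE)), which belong to the GINS part of the helicase, were not called.

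Among the licensing factors, 2 of 5 members were higher in KO. Cdt1, which brings the MCM ring to the origin, had 547, 628, 565, 546, 433, 453, 358 and 595 in KO against 258, 282, 326, 782, 289.9, 306, 291 and 261 in WT. Apart from the library labelled WT 60 min, which was the brightest of all 16, every WT array lay below every KO array. The difference was 1.55-fold (0.64 ± 0.17 (SE), adjusted p = 0.0172) and lost the threshold without either 15 min array. Orc6 had 324 to 480.3 (median 435) in KO against 256 to 404 (median 357) in WT. It was higher in KO at all 8 times by a small margin (1.21-fold, 0.28 ± 0.08 (SE), adjusted p = 0.0258), and the call was lost without a KO or WT array of 30, 180 or 240 min. Orc1 (-0.31 ± 0.25 (SE)), Orc2 (-0.64 ± 0.22 (SE)) and Cdc6 (0.47 ± 0.18 (SE)) were not called.

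Of the clamp and its loader, 2 of 6 members were higher in KO and 1 was lower. Rfc5 had 57.2 to 114 (median 81.7) in KO against 18.8 to 71.96 (median 55.7) in WT (1.59-fold higher, 0.67 ± 0.17 (SE), adjusted p = 0.0118) and was the higher in KO at all 8 times. Rfc4 had 115 to 174 (median 138) in KO against 62.4 to 137 (median 109) in WT (1.39-fold higher, 0.48 ± 0.15 (SE), adjusted p = 0.0294). Rfc1, the large subunit, had 298 to 531 (median 418) in KO against 389 to 583 (median 479) in WT and was 1.199-fold lower (-0.26 ± 0.09 (SE), adjusted p = 0.0385), with the signals as deposited 0.06 higher in KO. The Rfc4 call was lost without a KO or WT array of 30, 120, 180 or 240 min, and the Rfc1 call without one of 0, 15, 30, 120, 180 or 240 min. Pcna, the clamp itself, had 2639 to 4006 (median 3462) in KO against 2624 to 4783 (median 3651) in WT and was not called (-0.06 ± 0.06 (SE)), nor were Rfc2 (0.09 ± 0.10 (SE)) and Rfc3 (-0.13 ± 0.15 (SE)).

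Of the polymerases, only Pole, the catalytic subunit of the leading-strand polymerase, was called in this comparison. It had 40.2 to 98.7 (median 62.1) in KO against 19.2 to 64.4 (median 37.2) in WT (1.602-fold higher, 0.68 ± 0.17 (SE), adjusted p = 0.00958), with overlap between the genotypes. The other 5 members of the group were not called, with differences of 0.22 ± 0.12 (SE) for Pold1 of polymerase delta, 0.12 ± 0.17 (SE) and -0.15 ± 0.13 (SE) for Pola1 and Pola2 of polymerase alpha, and -0.06 ± 0.09 (SE) and -0.26 ± 0.11 (SE) for the primase subunits Prim1 and Prim2.

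Among proteins of single-stranded DNA and lagging-strand joining, 3 of 4 were higher in KO. Fen1, the flap endonuclease, had 574 to 1071 (median 708) in KO against 173 to 608 (median 433) in WT and was the higher in KO at all 8 times (1.85-fold, 0.89 ± 0.14 (SE), adjusted p = 0.000602). Rpa1 had 1484 to 2714 (median 2087) in KO against 1298 to 2129 (median 1690) in WT (1.26-fold higher, 0.34 ± 0.08 (SE), adjusted p = 0.0111). Rpa2 had 77.7 to 138 (median 120.1) in KO against 51.6 to 123 (median 83.4) in WT (1.35-fold higher, 0.43 ± 0.13 (SE), adjusted p = 0.0265), a call that was lost without a KO or WT array of 30, 120, 180 or 240 min. Another probe set of Rpa2, near the filter, gave 0.001 ± 0.261 (SE) and was not called. Lig1, the DNA ligase of the lagging strand, was not called (0.45 ± 0.20 (SE), adjusted p = 0.112). The ranges of the 3 called genes overlapped between genotypes, and Rpa1 and Rpa2 were each the higher in KO at 7 of the 8 times.

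The activating E2F factors did not move together. E2f1 had 254, 274, 225, 219.5, 186, 158, 146 and 159 in KO against 132, 163, 151, 105, 92.9, 68.2, 51.4 and 111 in WT. It was higher in KO at all 8 times (1.88-fold, 0.91 ± 0.12 (SE), adjusted p = 0.000194), and the early WT arrays overlapped with the late KO arrays. The call was that of its brightest probe set. Another, with mean signals of 136.1 in KO and 108.1 in WT, gave 0.305 ± 0.172 (SE) and was not called (limma, adjusted p = 0.219). A dim probe set gave 0.43 ± 0.415 (SE) and was not called either. E2f3 had 402, 374, 377, 429.7, 549, 487, 595 and 596 in KO against 559, 542, 444, 1106, 802, 843, 858 and 398 in WT. It was 1.398-fold lower in KO (-0.48 ± 0.17 (SE), adjusted p = 0.0479), and the call was lost without any 1 KO or WT array of 0 to 240 min. Both WT arrays with doubtful labels sat at the ends of its WT range. E2f2, under the filter on 6 of the 16 arrays, had 12.5 to 34.4 (median 21.1) in KO against 1.19 to 26.6 (median 16.3) in WT (0.54 ± 0.27 (SE), not called), and Rbl1, a retinoblastoma-family protein, was not called (0.05 ± 0.09 (SE)).

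Of the 4 members of chromatin upkeep, repair and checkpoint, Chek1, the checkpoint kinase that guards stalled forks, was called. It had 68.4 to 136 (median 95.9) in KO against 27.1 to 81.9 (median 49.6) in WT and was higher at all 8 times (1.73-fold, 0.79 ± 0.18 (SE), adjusted p = 0.0072). Ung, the uracil-DNA glycosylase, was 0.81 ± 0.30 (SE) and not called, with WT values from 9.24 to 92.1. Uhrf1, which guides maintenance methylation of new DNA, was -0.01 ± 0.20 (SE) and Slbp, which binds histone mRNA, was -0.15 ± 0.07 (SE).

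The difference between genotypes was also asked separately before and after the cells had time to respond. In the arrays of 0, 15 and 30 min, 11 members were higher in KO (13.6% of all genes) and 2 were lower (12.2% of all genes), with a median of 0.21 against -0.01 over all genes. In those of 120, 180 and 240 min, 17 members were higher (14.3% of all genes) and 3 were lower (11.6% of all genes), with a median of 0.35 against -0.02. Cdt1, Mcm5, Pole, Rpa1, Rrm2, Tk1, Dut and E2f1 were higher in both windows, and Mcm6 and E2f3 were lower in both. In each window 3 arrays stand against 3, at different times.

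**Figure D3:**
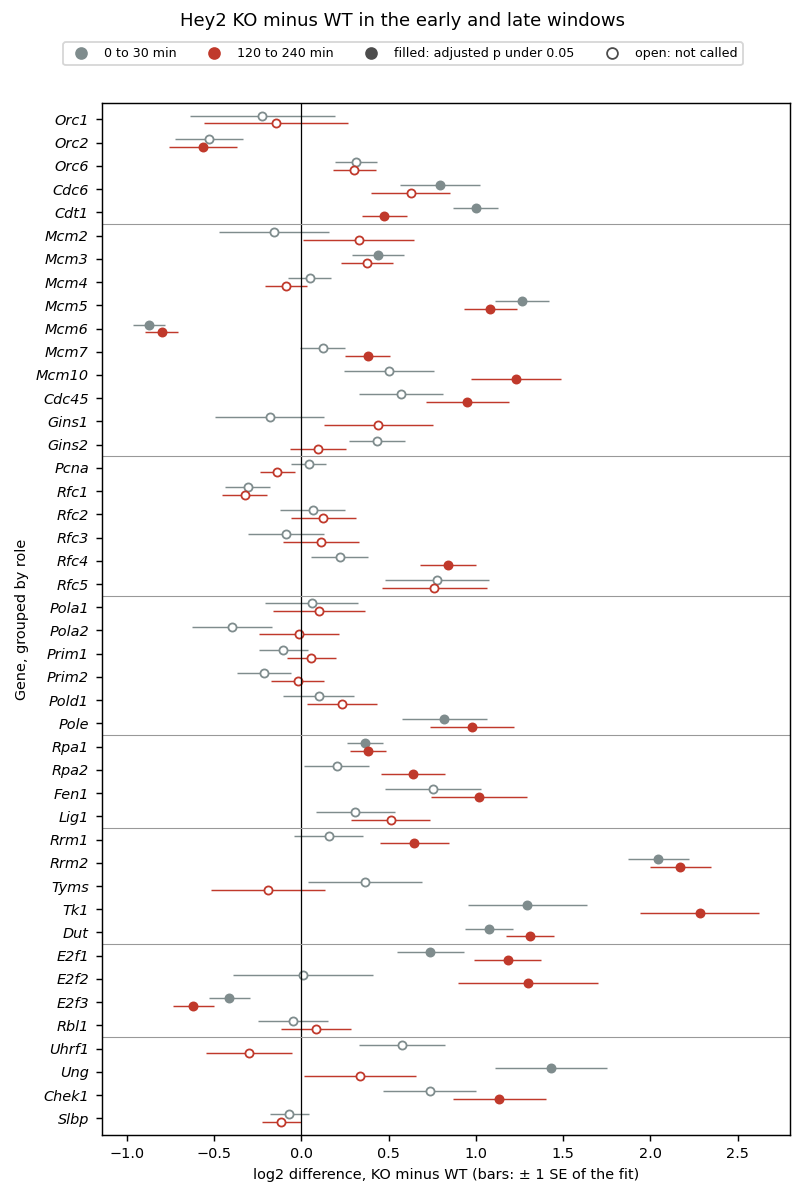
Difference in log2 signal, KO minus WT, at 0 to 30 min (grey) and 120 to 240 min (red) for the 44 members, with bars of 1 standard error of the fit and filled points where the adjusted p is under 0.05. Rrm2, Tk1, Dut, Mcm5 and E2f1 lie to the right in both windows and Mcm6 and E2f3 to the left.

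At 0 to 30 min, Mcm5 had 355, 415 and 361 in KO against 140, 161 and 161 in WT (2.402-fold, 1.26 ± 0.15 (SE), adjusted p = 3.52e-05). Cdt1 had 547, 628 and 565 in KO against 258, 282 and 326 in WT (1.999-fold, 1.0 ± 0.13 (SE), adjusted p = 6.19e-05). Mcm6 had 632, 730.4 and 609 in KO against 1146, 1208 and 1255 in WT (1.83-fold lower, -0.87 ± 0.09 (SE), adjusted p = 1.07e-05). In none of these 3 genes did the early arrays of the genotypes overlap. Rrm2 was 4.12-fold higher in KO (2.04 ± 0.17 (SE), adjusted p = 1.26e-06), Dut 2.103-fold (1.07 ± 0.14 (SE), adjusted p = 5.95e-05) and Tk1 2.45-fold (1.29 ± 0.34 (SE), adjusted p = 0.012). E2f1 was 1.67-fold higher (0.74 ± 0.19 (SE), adjusted p = 0.0112), Pole 1.76-fold (0.82 ± 0.24 (SE), adjusted p = 0.0219) and Rpa1 1.29-fold (0.37 ± 0.10 (SE), adjusted p = 0.0168).

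Cdc6, Ung and Mcm3 passed in this window and not over all times. Cdc6, the ATPase that loads the MCM ring with Cdt1, had 40.6, 42.04 and 44.6 in KO against 22.5, 24.9 and 19.9 in WT (1.73-fold, 0.79 ± 0.23 (SE), adjusted p = 0.0188). Ung had 59.1, 42.7 and 61.03 in KO against 27.6, 17.5 and 9.24 in WT (2.696-fold, 1.43 ± 0.32 (SE), adjusted p = 0.00453), with the WT 30 min array under the filter. Mcm3 had 284, 291 and 266 in KO against 219.8, 209 and 188 in WT (1.36-fold, 0.44 ± 0.15 (SE), adjusted p = 0.0418). The early arrays of the genotypes did not overlap for any of the 3. The Mcm3 call was that of its brightest probe set. It was lost in 8 of the 12 fits with 1 array left out, and with trimmed-mean scaling. Over all times the other tested probe sets of Mcm3 gave -0.595, 0.06, 0.644 and -0.139, none of them called. E2f3 had 402, 374 and 377 in KO against 559, 542 and 444 in WT (-0.41 ± 0.12 (SE), adjusted p = 0.0188), and with the signals as deposited it was 0.09 higher in KO. Leaving out single arrays kept 6 of these 13 calls in all 12 fits, those of Cdt1, Mcm5, Mcm6, Rrm2, Dut and Ung. Without the WT 30 min array the count of higher members dropped to 6, since Cdc6, Mcm3, Pole, Rpa1 and Tk1 were lost. That array was the dimmest as deposited (trimmed mean 80.99). It also had the highest signal ratio of the 3′ to the 5′ probe set of Actb (3.88). The part of this in the early calls was not tested. E2f1 was lost without the WT 0 min array, and E2f3 without the KO 15, KO 30, WT 0 or WT 15 min array.

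The calls at 120 to 240 min included Cdc45, Mcm10, Rfc4 and Chek1, while Gins1 (0.44 ± 0.31 (SE)) and Gins2 (0.09 ± 0.16 (SE)) were not called. Rrm2 had 575, 516 and 479 in KO against 153, 89.7 and 102 in WT (4.501-fold, 2.17 ± 0.17 (SE), adjusted p = 7.39e-07). Tk1 had 71.99, 65.3 and 60.2 in KO against 18.9, 11.1 and 3.19 in WT (4.86-fold, 2.28 ± 0.34 (SE), adjusted p = 0.000222), with the last 2 WT arrays under the filter. Dut had 504, 615 and 609 in KO against 213, 240.1 and 234 in WT (2.48-fold, 1.31 ± 0.14 (SE), adjusted p = 1.06e-05). The late arrays of these 3 genes were far apart between genotypes. Rrm1, the partner of Rrm2, had 834, 689.8 and 727 in KO against 702, 457 and 335 in WT (1.57-fold, 0.65 ± 0.20 (SE), adjusted p = 0.0258), a smaller difference with overlap. The Rrm1 call was that of its brightest probe set. Over all times another, with mean signals of 91.75 in KO and 105.8 in WT, gave -0.21 ± 0.179 (SE), and a dim one gave 0.52 ± 0.251 (SE). Neither was called.

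In the helicase Mcm10 had 64.3, 60.6 and 52.8 in KO against 22.1, 29.2 and 17.2 in WT (2.35-fold, 1.23 ± 0.26 (SE), adjusted p = 0.0028), Cdc45 was 1.94-fold higher (0.95 ± 0.24 (SE), adjusted p = 0.00938) and Mcm7 1.302-fold (0.38 ± 0.13 (SE), adjusted p = 0.0434). Mcm5 had 331, 302 and 252 in KO against 162, 130 and 119 in WT (2.12-fold, 1.08 ± 0.15 (SE), adjusted p = 0.000145). Mcm6 had 819, 767 and 777 in KO against 1339, 1373 and 1410 in WT (1.74-fold lower, -0.80 ± 0.09 (SE), adjusted p = 2.55e-05). The opposite placing of Mcm5 and Mcm6 was thus present in both windows.

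Among the regulators E2f1 had 186, 158 and 146 in KO against 92.9, 68.2 and 51.4 in WT (2.27-fold, 1.18 ± 0.19 (SE), adjusted p = 0.00045) and E2f3 had 549, 487 and 595 against 802, 843 and 858 (1.53-fold lower, -0.62 ± 0.12 (SE), adjusted p = 0.00142). E2f2 had 17.3, 21.4 and 22.2 in KO against 1.19, 9.26 and 7.51 in WT (adjusted p = 0.0278), all 3 WT arrays being under the filter, so no size is given. Chek1 was 2.196-fold higher (1.14 ± 0.27 (SE), adjusted p = 0.00608). In no case did the late arrays of these 4 genes overlap. Rfc4 had 140.2, 134 and 131 in KO against 91.2, 69 and 62.4 in WT (1.79-fold, 0.84 ± 0.16 (SE), adjusted p = 0.00159), Pole was 1.97-fold higher (0.98 ± 0.24 (SE), adjusted p = 0.00837) and Cdt1 1.39-fold (0.47 ± 0.13 (SE), adjusted p = 0.0145). Fen1 was 2.02-fold higher (1.02 ± 0.27 (SE), adjusted p = 0.014), Rpa2 1.56-fold (0.64 ± 0.18 (SE), adjusted p = 0.0196) and Rpa1 1.303-fold (0.38 ± 0.10 (SE), adjusted p = 0.0137). Orc2, an origin recognition subunit, was the third member lower in KO, at 270, 286 and 342 against 334, 452 and 572 in WT (-0.56 ± 0.19 (SE), adjusted p = 0.0461). With single arrays left out, 12 of the 20 calls held in all 12 fits. Without the KO 180 min array 11 members were higher, and the calls of Cdt1, Mcm7, Rpa1, Rpa2, Fen1, E2f2 and Orc2 were lost. Those of Mcm7 and Orc2 were each lost in 8 of the 12 fits, and also with trimmed-mean scaling. The E2f2 call was lost in 3 of the 12, and those of Rpa1 and Rpa2 in 2 each. Rrm1 was lost without the KO 120, WT 180 or WT 240 min array.

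The response to PDGF-BB was taken as the arrays of 120, 180 and 240 min against those of 0, 15 and 30 min of the same genotype. Replication genes were on balance lower at the later times in both genotypes. In KO, 11 members fell (10.6% of all genes) and 2 rose (8.71% of all genes), with a median of -0.37 against -0.07 over all genes. In WT, 20 members fell (21.9% of all genes) and 3 rose (15.3% of all genes), with a median of -0.47 against -0.06. Orc6, Rfc1, Rfc3, Pola2, Prim1, Rpa1, E2f1 and Rbl1 fell in both genotypes, and Orc2 and E2f3 rose in both. These comparisons share their arrays with the genotype comparisons above, so the values stand side by side and are not independent. All of these calls were lost with the signals as deposited.

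**Figure D4:**
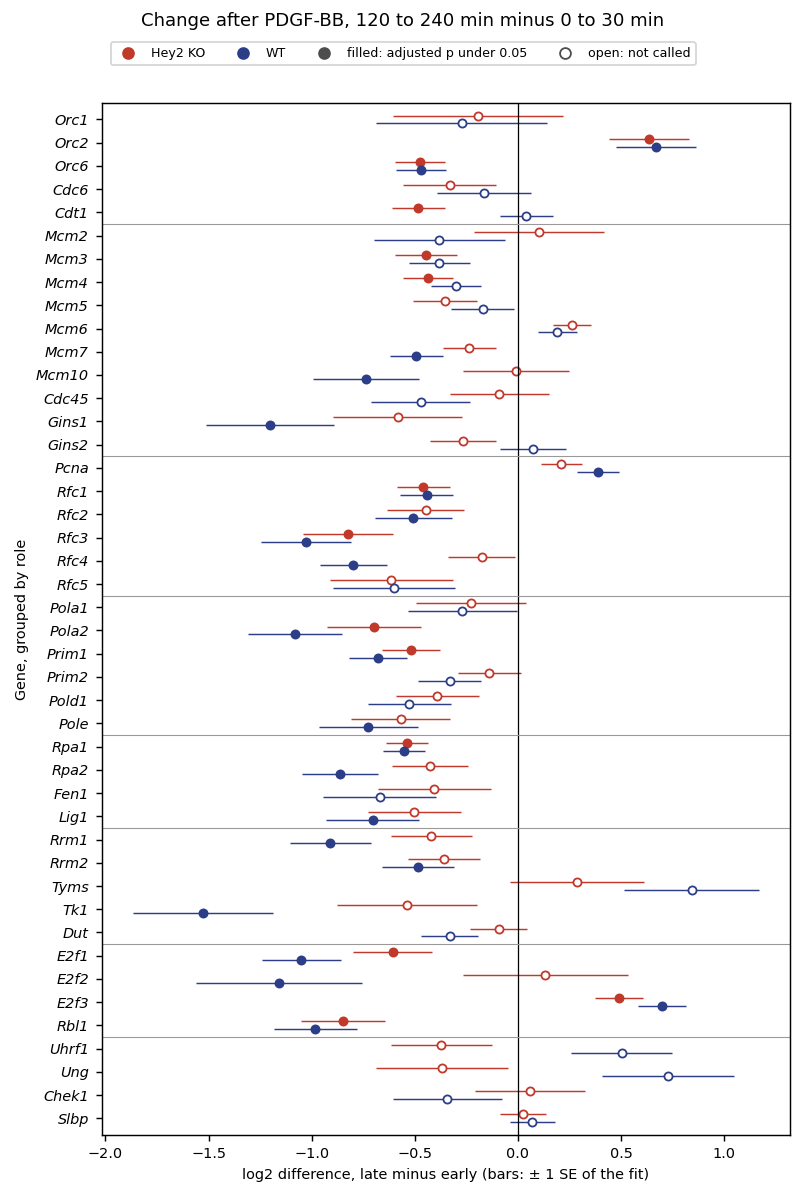
Change in log2 signal, 120 to 240 min minus 0 to 30 min, for the 44 members in KO (red) and WT (blue), with bars of 1 standard error of the fit and filled points where the adjusted p is under 0.05. Most points lie left of 0, and Orc2, Pcna and E2f3 are among those to the right of 0 in both genotypes.

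Other measures moved between the windows too. The signal ratio of the 3′ to the 5′ probe set of Actb, a measure of RNA integrity and labelling, was 1.54 to 2.44 at 120 to 240 min against 1.95 to 3.71 at 0 to 30 min in KO, and 1.53 to 1.84 against 2.41 to 3.88 in WT. The summed smooth muscle markers were 8008 to 8646 at 120 to 240 min against 6544 to 6824 at 0 to 30 min in KO, and 16630 to 17060 against 12520 to 13500 in WT. The summed mitosis genes were 1906 to 2362 at 120 to 240 min against 3109 to 3288 at 0 to 30 min in KO, and 569.4 to 1035 against 1135 to 1356 in WT. The summed fibroblast markers were 3689 to 4501 at 120 to 240 min against 4498 to 5026 at 0 to 30 min in KO, and 3376 to 3985 against 6141 to 6748 in WT. Csf1r, a leukocyte marker, rose in KO (3.28 ± 0.39 (SE), adjusted p = 6.99e-05) and in WT (2.64 ± 0.39 (SE), adjusted p = 0.000144). Their part in the fall of replication genes was not tested.

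Among the regulators E2f1 had 186, 158 and 146 at 120 to 240 min against 254, 274 and 225 at 0 to 30 min in KO (-0.61 ± 0.19 (SE), adjusted p = 0.0402), and 92.9, 68.2 and 51.4 against 132, 163 and 151 in WT (-1.05 ± 0.19 (SE), adjusted p = 0.000754). Rbl1 had 99.4, 61.01 and 95.3 against 147, 155 and 160.4 in KO (-0.85 ± 0.20 (SE), adjusted p = 0.00984), and 98.2, 62.8 and 77.8 against 146, 179 and 156 in WT (-0.98 ± 0.20 (SE), adjusted p = 0.00173). The later arrays of both genes lay below all the earlier ones in each genotype, although the mean over the tested probe sets of Rbl1 gave 0.01 in KO. E2f3 went the other way, with 549, 487 and 595 against 402, 374 and 377 in KO (0.49 ± 0.12 (SE), adjusted p = 0.0102), and 802, 843 and 858 against 559, 542 and 444 in WT (0.70 ± 0.12 (SE), adjusted p = 0.000411). E2f2 was called lower at 120 to 240 min in WT, with 1.19, 9.26 and 7.51 against 20.3, 18.1 and 15.5 (adjusted p = 0.0353), but all 3 later WT arrays and the WT 30 min array were under the filter, so no size is given. It was not called in KO.

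Origin licensing was split. Orc2 had 270, 286 and 342 at 120 to 240 min against 195, 169 and 208 at 0 to 30 min in KO (0.63 ± 0.19 (SE), adjusted p = 0.0346), and 334, 452 and 572 against 297, 221 and 322 in WT (0.67 ± 0.19 (SE), adjusted p = 0.0148). Orc6 had 324, 325 and 346 against 441, 468 and 480.3 in KO (-0.48 ± 0.12 (SE), adjusted p = 0.0144), and 283, 256 and 264 against 399.6, 404 and 319 in WT (-0.47 ± 0.12 (SE), adjusted p = 0.00756). These 2 subunits of the same complex thus moved in opposite directions in both genotypes. Cdt1 fell in KO, with 433, 453 and 358 against 547, 628 and 565 (-0.48 ± 0.13 (SE), adjusted p = 0.0181), and was not called in WT (0.04 ± 0.13 (SE)).

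Of the helicase, Mcm3 (-0.45 ± 0.15 (SE), adjusted p = 0.0488) and Mcm4 (-0.44 ± 0.12 (SE), adjusted p = 0.0224) fell in KO. In WT Mcm7 (-0.49 ± 0.13 (SE), adjusted p = 0.00822), Mcm10 (-0.74 ± 0.26 (SE), adjusted p = 0.0358) and Gins1 (-1.20 ± 0.31 (SE), adjusted p = 0.00787) fell. Gins1 had 53.3, 44.6 and 32.8 at 120 to 240 min against 53.4, 65.97 and 83.6 at 0 to 30 min in KO (-0.58 ± 0.31 (SE), not called), and 47.5, 35.5 and 15.7 against 64.1, 73.8 and 92.99 in WT. Mcm6 was not called in either genotype (0.26 ± 0.09 (SE) in KO, 0.19 ± 0.09 (SE) in WT). No subunit of the helicase was called in both genotypes.

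In the clamp loader Rfc3 had 44.7, 41.5 and 46.4 at 120 to 240 min against 84.9, 89.5 and 72.4 at 0 to 30 min in KO (-0.82 ± 0.22 (SE), adjusted p = 0.0173), and 50.5, 27.6 and 46.8 against 105, 80.7 and 78.8 in WT (-1.03 ± 0.22 (SE), adjusted p = 0.00217). Rfc1 fell in KO (-0.46 ± 0.13 (SE), adjusted p = 0.0236) and in WT (-0.44 ± 0.13 (SE), adjusted p = 0.0149), while Rfc4 (-0.80 ± 0.16 (SE), adjusted p = 0.00162) and Rfc2 (-0.51 ± 0.19 (SE), adjusted p = 0.0448) fell in WT. Pcna, which the loader places on DNA, rose in WT with 3618, 3753 and 3932 against 2624, 2808 and 3228 (0.39 ± 0.10 (SE), adjusted p = 0.00733) and was not called in KO (0.21 ± 0.10 (SE)). The clamp and its loader therefore went in opposite directions in WT.

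Pola2 had 55.6, 41.8 and 66.9 at 120 to 240 min against 100.3, 71.9 and 102 at 0 to 30 min in KO (-0.70 ± 0.23 (SE), adjusted p = 0.0473), and 48.5, 43.5 and 75.5 against 113, 130.4 and 119 in WT (-1.08 ± 0.23 (SE), adjusted p = 0.00214). Prim1 fell in KO (-0.52 ± 0.14 (SE), adjusted p = 0.0204) and in WT (-0.68 ± 0.14 (SE), adjusted p = 0.00194), and Pole in WT (-0.73 ± 0.24 (SE), adjusted p = 0.0292). Rpa1 had 1831, 1852 and 1484 against 2322, 2714 and 2446 in KO (-0.54 ± 0.10 (SE), adjusted p = 0.00258), and 1339, 1298 and 1306 against 1934, 2129 and 1742 in WT (-0.55 ± 0.10 (SE), adjusted p = 0.000847). The fall of Rpa1 had the smallest adjusted p among the members in KO. Rpa2 (-0.86 ± 0.18 (SE), adjusted p = 0.00224) and Lig1 (-0.70 ± 0.23 (SE), adjusted p = 0.0247) fell in WT.

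No enzyme of deoxynucleotide supply was called in KO. Tk1 had 71.99, 65.3 and 60.2 at 120 to 240 min against 96.2, 87.3 and 111 at 0 to 30 min in KO (-0.54 ± 0.34 (SE), not called), and 18.9, 11.1 and 3.19 against 41.4, 49.3 and 24.3 in WT (-1.53 ± 0.34 (SE), adjusted p = 0.00299). Rrm1 had 702, 457 and 335 against 860.5, 986 and 854 in WT (-0.91 ± 0.20 (SE), adjusted p = 0.00244), and Rrm2 fell in WT (-0.48 ± 0.17 (SE), adjusted p = 0.0423). Uhrf1, Ung, Chek1 and Slbp were not called in either genotype. Leaving out single arrays kept 4 of the 13 calls in KO (Orc6, Rpa1, E2f3 and Rbl1) and 15 of the 23 in WT in all 12 fits. The falls counted in KO were 5 without the KO 0, 180 or 240 min array and 6 without the KO 15 or 30 min array, and the rises in WT were 5 without the WT 0 min array.

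The difference between the 2 responses was tested directly, as KO minus WT. No member passed (limma, adjusted p under 0.05), where 0.755% of all genes did (43 higher and 65 lower), and 5 members had an unadjusted p under 0.05. These were E2f2 (adjusted p = 0.419, with late WT arrays under the filter), Rfc4 (0.62 ± 0.23 (SE), adjusted p = 0.307), Cdt1 (-0.52 ± 0.18 (SE), adjusted p = 0.267), Uhrf1 (-0.88 ± 0.35 (SE), adjusted p = 0.347) and Ung (-1.10 ± 0.45 (SE), adjusted p = 0.379). A fall called in one genotype and not in the other is therefore not shown to differ between them.

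The KO 480 min library and the library labelled WT 60 min, which were most like each other, are described singly and with no test. Against the 0 to 30 min mean of KO, the KO 480 min library held 2 members at least 1.5-fold higher, Orc2 and E2f3 (15.2% of all genes), and 8 at least 1.5-fold lower (18.2% of all genes). The lower ones were Orc1, Rfc3, Rfc5, Lig1, Rrm1, Rrm2, Tk1 and E2f1. Against the 0 to 30 min mean of WT, the library labelled WT 60 min held 12 members at least 1.5-fold higher (18% of all genes) and 2 at least 1.5-fold lower, Lig1 and Rrm1 (22.6% of all genes). The higher ones were Orc2, Cdc6, Cdt1, Mcm2, Mcm3, Mcm5, Pcna, Tyms, E2f3, Uhrf1, Ung and Chek1. This library gave the brightest WT value for 15 of the 44 members (19% of all genes), among them Ung at 92.1 against 27.6, 17.5 and 9.24 at 0 to 30 min, Uhrf1 at 182 against 62.4, 81.2 and 41.5, and Cdc6 at 54.95 against 22.5, 24.9 and 19.9. The matching KO 480 min values were 81.5, 76.9 and 29.4.

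**Figure D5:**
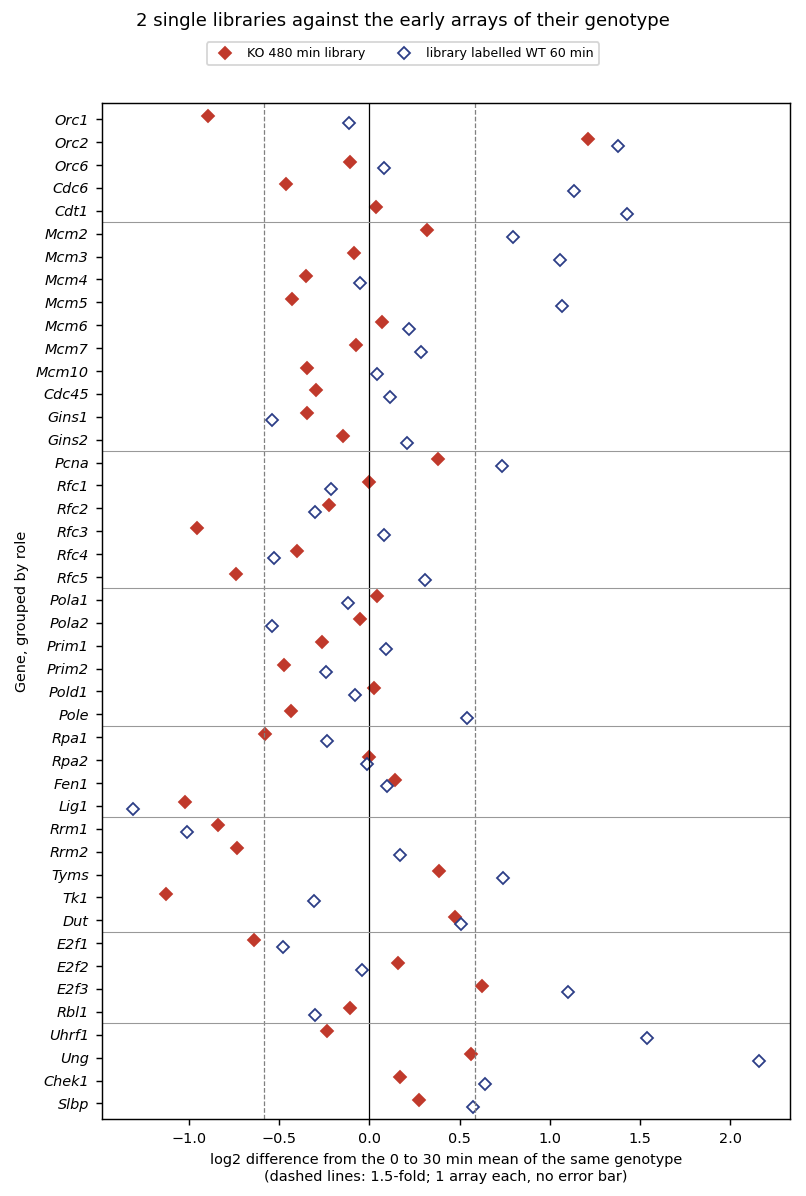
log2 difference of the KO 480 min library (red, filled) and of the library labelled WT 60 min (blue, open) from the mean of the 0 to 30 min arrays of the same genotype, for the 44 members; dashed lines mark 1.5-fold and there is 1 array per point. Cdt1, Mcm5, Uhrf1 and Ung lie beyond the right dashed line in the library labelled WT 60 min and not in the KO 480 min library, and Lig1 and Rrm1 lie beyond the left line in both.

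Genes that work with the members were counted in the same fits, and those named are the called ones of each list with the smallest p. Over all times, 16.5% of all genes were higher in KO and 14.1% lower. Of 26 other replication subunits, 4 (15.4%) were higher in KO and 2 (7.69%) lower (median 0.03), so this list did not exceed the shares of all genes. Among them Rpa3, the small subunit of the complex that holds Rpa1 and Rpa2, was lower in KO (-0.73 ± 0.08 (SE), adjusted p = 4.12e-05), whereas Clspn (0.99 ± 0.13 (SE), adjusted p = 0.000202) and Dscc1 (0.94 ± 0.16 (SE), adjusted p = 0.00126) were higher. Of 18 S-phase kinases, cyclins, inhibitors and E2F partners, 8 (44.4%) were higher and 0 lower (median 0.35). The higher ones included Ccna2, cyclin A (1.55 ± 0.20 (SE), adjusted p = 0.000175), the repressor E2f8 (1.65 ± 0.22 (SE), adjusted p = 0.000238) and Tfdp2, a dimer partner of E2F (1.13 ± 0.17 (SE), adjusted p = 0.000568). Of 16 tested chromatin and nucleotide genes of S phase, 7 (43.8%) were higher and 1 (6.25%) was lower (median 0.33). Those higher in KO included the histone chaperones Chaf1b (1.07 ± 0.15 (SE), adjusted p = 0.000344) and Asf1b (1.01 ± 0.15 (SE), adjusted p = 0.000398) and the Pcna-binding Pclaf (0.66 ± 0.13 (SE), adjusted p = 0.00322). All 11 tested mitosis genes were higher, with a median of 1.26, among them Ccnb2, a cyclin B (1.75 ± 0.19 (SE), adjusted p = 4.91e-05), Mki67 (2.01 ± 0.22 (SE), adjusted p = 6.54e-05) and Birc5 (1.25 ± 0.15 (SE), adjusted p = 0.000127).

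In the response to PDGF-BB Gmnn, geminin, which inhibits the licensing factor Cdt1, fell in KO (-1.13 ± 0.15 (SE), adjusted p = 0.000185) and in WT (-2.12 ± 0.15 (SE), adjusted p = 3.37e-07). Timeless, a protein of the replication fork, fell in WT (-1.91 ± 0.27 (SE), adjusted p = 0.000117) and was not called in KO (-0.60 ± 0.27 (SE), adjusted p = 0.142), and Rpa3 fell in KO (-0.72 ± 0.11 (SE), adjusted p = 0.000552) and in WT (-0.58 ± 0.11 (SE), adjusted p = 0.000942). E2f6 rose in KO (0.47 ± 0.14 (SE), adjusted p = 0.0286) and in WT (0.76 ± 0.14 (SE), adjusted p = 0.000691), and Skp2, which marks cell-cycle inhibitors for degradation, rose in KO (0.71 ± 0.14 (SE), adjusted p = 0.0036) and in WT (0.68 ± 0.14 (SE), adjusted p = 0.00204). Dck, deoxycytidine kinase, fell in KO (-0.48 ± 0.15 (SE), adjusted p = 0.0346) and in WT (-1.03 ± 0.15 (SE), adjusted p = 0.000117), as did Cdk1, the mitotic kinase (-0.75 ± 0.21 (SE), adjusted p = 0.025 in KO and -1.03 ± 0.21 (SE), adjusted p = 0.0019 in WT). Of the mitosis genes, 3 of 11 (27.3%) fell in KO and 6 of 11 (54.5%) in WT, where the shares of all genes were 10.6% and 21.9%.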

How the data were processed

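The deposited files held 1 linear signal intensity for each probe set and array. The authors used MAS5 for these intensities, per the submitters' processing notes, whose MAS5 version and target intensity remain unknown here. All 16 columns were mapped by their titles, and 0 columns were left unmapped. Arrays were quantile normalized, since their trimmed means differed, and log2(signal + 4.856) was analysed, an offset equal to the 20th percentile. Probe sets above 16 (the 40th percentile) on at least 3 arrays were kept and the brightest per gene was tested (14299 genes), among 45101 probe sets of which 932 carried several symbols. The 44 members had 105 probe sets, 91 of them tested. For members called over all times, 17 of the 20 other tested probe sets had the same sign. Of these 20, 8 were called in the same direction and 0 in the opposite direction. Over all members, 33 of the 47 other tested probe sets had the same sign. Rfc3, not called on its brightest probe set, had a dimmer one that was called lower in KO (-0.443 ± 0.123 (SE), limma adjusted p = 0.0196). limma 3.58.1 (R 4.3.3) was run with a variance trend and Benjamini-Hochberg adjustment over all genes at 0.05. The fit over all times had genotype and time as a factor (7 residual degrees of freedom). The window fit had 4 means over 12 arrays (8 residual degrees of freedom), so real change within a window adds to its error. P-values measure the spread between these arrays, which may be technical. The members, lists and rules were chosen with earlier results of these data known. Named are all 44 members and, per companion list and comparison, up to 3 called genes with the smallest p. Scripts were tested on simulated data. Some genes of the companion lists were not analysed here.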

Additional observations from a re-analysis of the deposited data

How the results depend on the processing

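With 1 array per genotype and time, the counts of called members rest on the spread between neighbouring times. With the signals as deposited, 59 of the 88 calls lost the threshold in the same direction, and 2 more were lost with a change of sign. The mean of the tested probe sets lost 30 of 88 in the same direction and 1 more with a change of sign. The windows as labelled lost 48 of 69 and trimmed-mean scaling 4 of 88. With the signals as deposited, the median of all genes shifted to 0.28 over all times, 0.40 at 0 to 30 min and 0.37 at 120 to 240 min (KO minus WT), and to 0.15 in KO and 0.16 in WT for the response. The share of calls of all genes that were higher in KO was 87.9%, against 54% after quantile normalization, over all times, 87.6% against 52.7% at 0 to 30 min, and 89.2% against 55.2% at 120 to 240 min, and of rises among response calls 89% against 45.1% in KO and 76.2% against 41.1% in WT. Relative to that shift the median member was 0.29, 0.23, 0.40, -0.29 and -0.35 in these comparisons, against 0.27, 0.22, 0.37, -0.30 and -0.41 after quantile normalization. With the signals as deposited, members called were 14 higher and 0 lower over all times (13.1% and 1.8% of all genes). They were 5 higher and 0 lower at 0 to 30 min, where 753 and 107 of 14375 genes were called. At 120 to 240 min they were 9 higher and 0 lower, where 813 and 98 of 14375 genes were called. For both responses 0 members were called in either direction. Of the 14375 genes, 203 rose and 25 fell in KO, and 524 rose and 164 fell in WT. Rfc1 over all times turned to 0.062 (adjusted p = 0.934) and E2f3 at 0 to 30 min to 0.086. With the mean of the tested probe sets, 1 member was lower over all times, 1 was lower at 0 to 30 min, 11 were higher at 120 to 240 min, and 1 rose and 7 fell in KO, where Rbl1 turned to 0.011. With the windows as labelled, 60 and 480 min included, 6 members were higher at the early times, 11 higher and 1 lower at the late times, 0 rose and 0 fell in KO, and 0 rose and 2 fell in WT. Trimmed-mean scaling left 1 rise in KO (1106 of 14379 genes). Without a variance trend 11 of the 88 calls lost the threshold, and 1 rise in KO was left. Genotype without time as a factor left 1 lower member over all times and lost 5 of the 19 calls, those of Orc6, Rfc1, Rpa1, Rpa2 and E2f3. The cause of these changes was not tested. No share of all genes was counted for the probe-set mean, the windows as labelled, the last 2 settings or the fits with 1 array left out, so those counts are descriptions only. Another filter changed no direction, but without any filter 11 of the 88 calls lost the threshold. The offsets changed no call, and each changed the direction of 1 result that was not called. The setting without the 60 and 480 min arrays kept all 19 calls. With each array left out, the counts ran from 13 to 20 higher and 1 to 4 lower over all times, 6 to 15 and 1 to 3 at 0 to 30 min, 11 to 20 and 2 to 3 at 120 to 240 min, 1 to 2 rises and 5 to 14 falls in KO, 2 to 5 rises and 14 to 25 falls in WT, and 0 to 0 for the difference of responses. The lower count over all times was 1, Mcm6, without any 1 array of 0, 15, 30, 120, 180 or 240 min. The lower count at 0 to 30 min was 1 without the KO 30 or the WT 0 min array, and the rises in KO were 1 without the KO 0, 30, 180 or 240 min array. The labels give no replicate numbers, and the fit over all times pairs the genotypes by labelled time.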
